A study of Mus musculus with 3 samples.

Results

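Non-cycling ductal-like cells with a gastric secretory programme were followed in 3 mouse pancreatic tumours. A cell was a member when the trefoil factor genes Tff1 and Tff2 and the lectin gene Lgals4 together held 0.3% or more of its unique molecular identifiers (UMIs, one per captured RNA molecule). It also had to stay under 0.6% for 7 digestive enzyme genes, under 0.35% for 8 genes that mark a Msln and Ly6a high state, and under 0.3% for the basal keratins Krt5, Krt14 and Krt15 and for 10 cell cycle genes. By this rule 750 of 2148 kept cells were members. The members were selected on these measured UMI shares. Tumour 1 held 408 of 957 cells (42.6%, exact Clopper-Pearson 95% interval 39.5 to 45.8). Tumour 2 held 99 of 194 (51.0%, interval 43.8 to 58.3), and tumour 3 held 243 of 997 (24.4%, interval 21.7 to 27.2), which gives a mean of 39.3% ± 13.6 (SD, n = 3). The share is set by the rule, the EpCAM sort and the filters on cells. With barcodes of 10% or more ribosomal RNA locus genes kept in the denominator, it was 29.8%, 40.9% and 9.38%.

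Every cell profiled came from one kind of tumour. Epithelial cells positive for tdTomato, and so expressing MYC, were sorted from donor mice of genotype Msi2-Myc; R26-LSL-tdTomato at 5 weeks after tamoxifen. They were placed in the pancreas of NSG recipients, which lack adaptive immunity, and EpCAM-positive cells of the end-stage tumours were sequenced in droplets, 1 library per tumour. In this model recombination by tamoxifen is driven by CreER of the Msi2 line, and the series title names the MycT58A form of MYC and the tumour types ASCP, PDAC and ACC. The labels of the 3 tumours differ in their titles only, so all are 1 group, with no control tissue and no test between tumours. The members were set against 3 other populations gated in the same tumours with the same cell filters. These were non-cycling acinar-like cells with 0.6% or more enzyme UMIs (221, 20 and 366 cells in tumours 1, 2 and 3), cells of the Msln and Ly6a high state (85, 12 and 80 cells), and cycling cells that otherwise met the members' rule (29, 3 and 8 cells).

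Trefoil factors are small secreted peptides that stabilise mucus, and Tff1 and Tff2 are products of gastric surface and neck mucous cells. Normal pancreatic ducts make little of them. Duct-like cells of pancreatic precursor lesions and tumours often take up such a gastric programme, together with gastrokines, annexin A10 and cathepsin E, while acinar enzymes are lost.

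The count tables held 11502184, 9737397 and 16521484 UMIs in tumours 1, 2 and 3. The members had medians of 1617.5, 1254 and 1758 UMIs, and their sums came to 745385, 139620 and 485989 UMIs. Many barcodes recurred between libraries, so a barcode counted as a cell only where 60% or more of its UMIs lay in 1 library. This removed 11.1%, 55.6% and 2.45% of the barcodes that passed the other filters. By this limit a barcode can be kept in 1 library only, so the absence of shared kept barcodes says nothing about mixing. How many UMIs of a kept barcode came from another library was not tested. Tumour 2 had the fewest cells before this step (437, against 1076 and 1022 in tumours 1 and 3) and after it. Of the members' barcodes, the median had 74.6%, 77.5% and 79.0% of its UMIs in its own library. Free RNA was read from barcodes with 10 to 100 UMIs. Mitochondrial UMIs were higher in the members (medians of 3.68%, 3.81% and 4.37%) than in the acinar-like cells (2.31%, 1.70% and 2.61%), and the part of this in any difference below was not tested.

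The 3 genes of the rule are given as a description, here and wherever they recur, and were not tested. Tff1 stood at 6605, 6876 and 7089 CPM (UMI counts of the summed cells, scaled to 1e6) in the members of tumours 1, 2 and 3. Tff2 stood at 3959, 2972 and 5899 CPM, and Lgals4, which encodes galectin-4 of the gut lining, at 1429, 1232 and 1815 CPM. Tff1 was thus nearly level between tumours while Tff2 was highest in tumour 3. Together the 3 genes took a median of 0.984%, 0.921% and 1.21% of a member's UMIs, with a maximum of 7.14% in tumour 3, against 0.256%, 0.204% and 0.203% of free RNA. The cells were not sharply set off at the threshold. The 69 cells just inside it, at 0.3% to 0.4%, had a gastric gene list at 1701 CPM, a pancreatic duct list at 11329 CPM and Lypd8 at 289 CPM. The 64 cells just outside it, at 0.2% to 0.3%, had 1524, 12721 and 96.2 CPM of the same.

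The label was set beside genes that the rule did not use. This is not an independent check, since the lists were chosen with earlier results of these data known. Lypd8 and Phgr1 are also marker genes given to these cells beforehand. Of 19 gastric mucous genes 16 had at least 1 UMI in the members, and their summed level was 2223 CPM in tumour 1, 2392 CPM in tumour 2 and 2908 CPM in tumour 3. Cathepsin E (Ctse), mucin 1 (Muc1), annexin A10 (Anxa10) and the sulfotransferase Sult1c2 were the most abundant of them. Muc5ac, the gel-forming mucin of the gastric surface, was at 0 UMIs in all 3 tumours, and so were pepsinogen C (Pgc) and Capn9. Muc6, the mucin of gastric glands, had 2 UMIs in all. A count of 0 over the members allows up to 2.19 CPM, so the programme held trefoil factors and gastrokines without detectable Muc5ac. Of the intestinal genes, Lypd8 and Phgr1 were clearly present, while Cdx1 and Cdx2, the transcription factors of intestinal identity, and Reg4, Muc3 and Guca2a were at 0. The gastric and stomach-mesenchyme factors Sox2 and Barx1 were also at 0. Ductal keratins were high: Krt19 stood at 3951, 3388 and 4626 CPM. Epcam, the surface protein of the sort, stood at 618, 852 and 763 CPM. No UMI of the endocrine or fibroblast lists was found. The members' 7 enzyme genes, limited by the rule, stood at 227, 301 and 580 CPM against 5541, 4456 and 7433 CPM in free RNA.

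**Figure D1:**
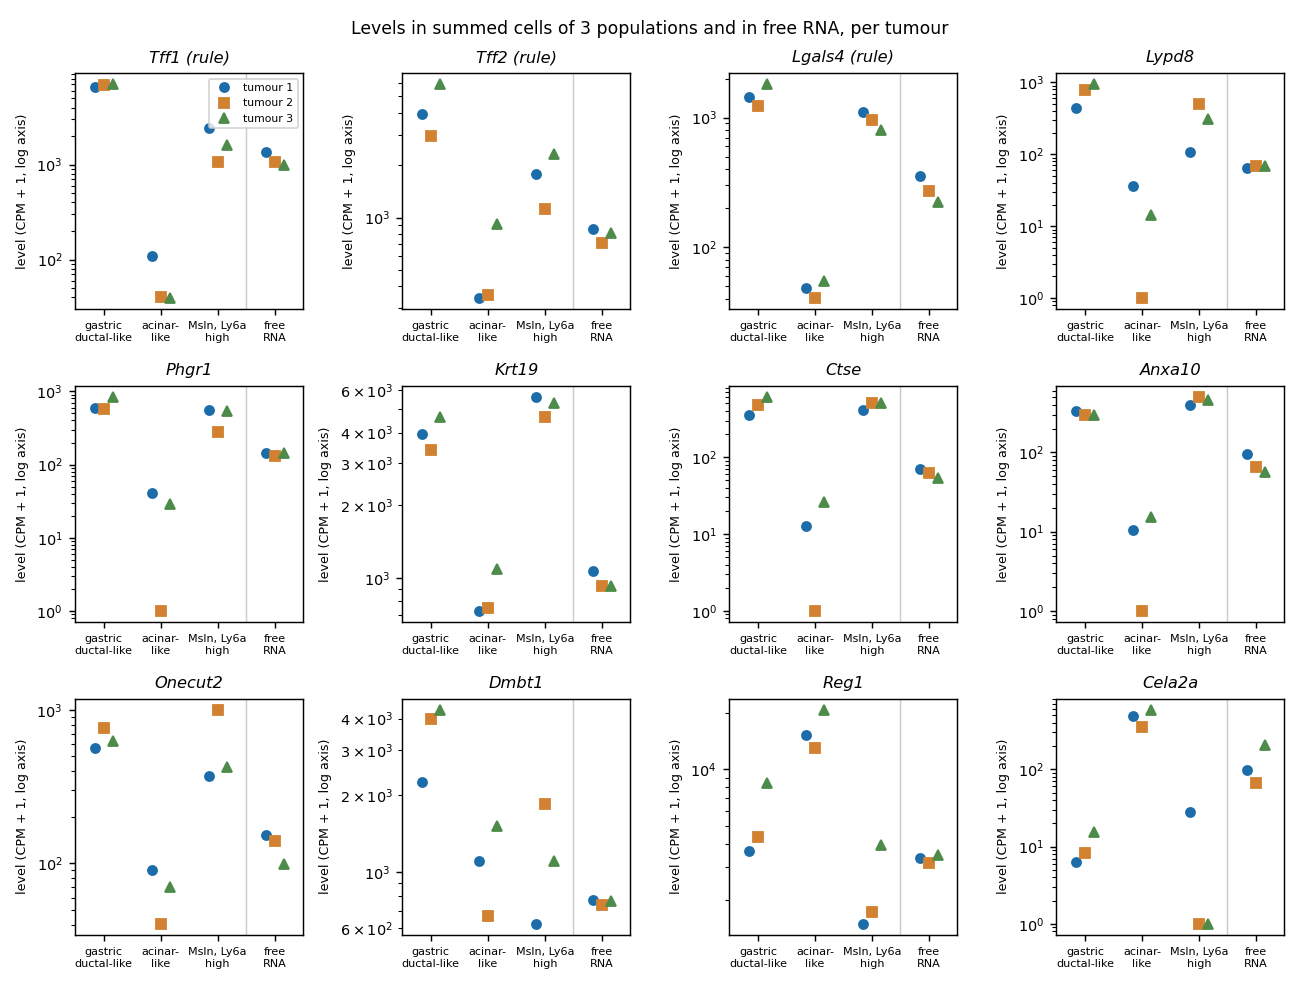
Levels of 12 genes in the summed cells of 3 populations and in free RNA, on a log axis of CPM + 1, with 1 symbol per tumour; the first 3 panels are genes of the rule. The gastric ductal-like cells lie above the acinar-like cells in every panel except Reg1 and Cela2a, and overlap the Msln and Ly6a high cells for Lypd8, Ctse, Onecut2, Reg1 and Cela2a.

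Against acinar-like cells the members carried a broad gastric, intestinal and ductal programme and little acinar RNA. Sums per tumour entered 1 edgeR quasi-likelihood fit that blocked on the tumour, and genes of the rule were left out of the numbers of called genes. Of 4500 genes tested, 898 (20.0%) were higher in the members and 943 (21.0%) were lower at a Benjamini-Hochberg adjusted p under 0.05. Without tumour 1 these counts were 449 and 253, and without tumour 3 they were 401 and 243. When cells were gated on a random 50% of their UMIs and tested on the rest, 632 were higher and 572 lower. DESeq2 called 627 higher and 309 lower, so that 67.0% of its calls were higher against 48.8% with edgeR. The median fold change of all genes differed by 0.11 on the log2 scale between the 2 tools, which differ in model as well as scaling.

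The gastric mucous genes were higher as a group. All 12 of the 19 that passed the low-count filter were called higher, with a median log2 fold change of 4.67 beside -0.06 over all genes tested, and 11 of the 12 stayed called when each tumour was left out in turn. A gene could pass this filter through the members alone. The 2 populations were gated in opposite directions on Tff1, Tff2 and Lgals4, so the direction of genes that vary with these is not an independent result. Ctse, an aspartic protease of gastric surface cells, stood at 351, 480 and 609 CPM in the members, against 11.8, 0 and 25.1 CPM in acinar-like cells (log2 fold change 4.67, SE 0.25, edgeR adjusted p = 1.65e-76). Anxa10, a stomach-restricted annexin, stood at 335, 294 and 298 CPM in the members and at 9.43, 0 and 14.4 CPM in acinar-like cells (4.66, SE 0.28, edgeR adjusted p = 1.26e-61). Agr2, a disulfide isomerase needed for mucin folding, had 190 UMIs in the members against 2 in acinar-like cells, a ratio of 89.1 per UMI (exact binomial 95% interval 24.3 to 741). Vsig1, an adhesion protein of gastric epithelium, stood at 136, 129 and 152 CPM in the members and at 11.8, 0 and 2.39 CPM in acinar-like cells. Muc1 differed least, at 394, 358 and 549 CPM in the members against 101, 355 and 118 CPM in acinar-like cells, and the 2 populations were nearly level in tumour 2. The acinar-like sum of tumour 2 held 20 cells and 25365 UMIs, so a value of 0 there is weak evidence of absence.

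The intestinal genes behaved alike. Of 25 on the list 13 were tested and 11 were higher, with a median of 3.86, and 10 of the 11 stayed called without each tumour. Lypd8, a secreted protein that keeps bacteria from the colonic lining, stood at 435, 795 and 953 CPM in the members, against 35.3, 0 and 13.2 CPM in acinar-like cells (log2 fold change 5.19, SE 0.25, edgeR adjusted p = 1.75e-94). Phgr1, a small gut epithelial protein, stood at 585, 573 and 842 CPM in the members, against 40.1, 0 and 27.5 CPM in acinar-like cells (4.54, SE 0.23, edgeR adjusted p = 1.45e-82). Free RNA held 64.5 to 68.7 CPM of Lypd8 and 130 to 142 CPM of Phgr1, below the members in every tumour. The members with a Lypd8 UMI, after thinning each cell to 1000 UMIs, made up 23.5%, 40.4% and 42.8%, against 1.36%, 0% and 1.09% of acinar-like cells. Without thinning these shares were 33.1%, 44.4% and 50.6% in the members and 2.71%, 0% and 2.46% in acinar-like cells. The mucins Muc13 and Muc4, the brush border proteins Vil1 and Myo1a and the tetraspanin Tspan8 were also called. Muc13 had 141 UMIs in the members against 1 in acinar-like cells. Ceacam1 (0.15, SE 0.25) and Espn (1.17, SE 0.55) were not called.

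Ductal identity was shared by most listed genes. Of 21 pancreatic duct genes 14 were tested and 12 were higher, with a median log2 fold change of 1.63, and 11 of the 12 stayed called without each tumour. Krt19 (2.32, SE 0.20, edgeR adjusted p = 6.27e-29), Krt8 and Krt7 are keratins of simple duct epithelium. Car2, the carbonic anhydrase of bicarbonate secretion, stood at 514, 523 and 661 CPM in the members, against 30.6, 78.8 and 39.5 CPM in acinar-like cells. The bicarbonate cotransporter gene Slc4a4 was also higher (4.28, SE 0.46, edgeR adjusted p = 8.54e-19). Spp1 (0.14, SE 0.19) and Cldn4 (0.47, SE 0.33) were not called. The chloride channel Cftr had 34 UMIs in the members and did not pass the filter, and the water channels Aqp1 and Aqp5 were at 0.

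Transcription factors of foregut and duct were mostly higher. Of 26 listed 11 were tested and 10 were called higher, with a median of 1.53, and 7 stayed called without each tumour. Onecut2, a homeodomain factor of endoderm, was the most abundant, at 561, 766 and 630 CPM in the members and 89.5, 39.4 and 69.4 CPM in acinar-like cells (3.03, SE 0.19, edgeR adjusted p = 5e-52). Foxa1, a pioneer factor of endoderm, stood at 75.1, 136 and 63.8 CPM in the members, against 4.71, 0 and 0 CPM in acinar-like cells, while its paralogue Foxa2 was not called (0.07, SE 0.47). Klf5 (2.02, SE 0.19), Elf3 (1.90, SE 0.19) and Ehf (1.53, SE 0.26) are factors of epithelial differentiation. Sox9 of duct progenitors (1.32, SE 0.30) and Pdx1 of the early pancreas and antrum (1.53, SE 0.37) were higher as well. Klf4, Hnf4a and Creb3l1 lost the call when tumour 3 was left out.

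Genes that defend mucosal surfaces split into opposite directions. Of 26 listed 11 were tested, 8 were higher and 3 lower, with a median of 1.26, and 8 of the 11 stayed called without each tumour. Pigr, the receptor that carries IgA into the lumen, stood at 880, 1518 and 1512 CPM in the members, against 68.3, 0 and 68.2 CPM in acinar-like cells (4.26, SE 0.22, edgeR adjusted p = 8.8e-84). Dmbt1, a secreted scavenger receptor that binds bacteria, stood at 2258, 4004 and 4340 CPM in the members, against 1098, 670 and 1515 CPM in acinar-like cells (1.60, SE 0.18, edgeR adjusted p = 1.64e-16). The hydrogen peroxide source Duox2 and its partner Duoxa2 and the iron binder lactoferrin (Ltf) were higher, by 4.82, 4.92 and 4.83 on the log2 scale. The lectin genes Reg3a (fold change of -6.25 on the log2 scale, SE 0.25) and Reg3b (-1.23, SE 0.18) fell, and Reg3g was slightly higher (0.44, SE 0.16). Lcn2, which starves bacteria of iron, was higher (1.26, SE 0.18) but not without tumour 3, and Reg3g and Slpi lost their call without tumour 1 or tumour 3.

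Detoxification genes were mostly higher than in acinar-like cells, but not particular to the members. Of 26 listed 12 were tested, 8 were higher and 1 was lower, with a median of 2.67, and 8 of these 9 stayed called without each tumour. The glutathione transferase Gsta4 stood at 1250, 1003 and 1484 CPM in the members, against 118, 0 and 142 CPM in acinar-like cells. Gsto1 of the same enzyme class was among the members' 20 most abundant genes, at 3052, 3502 and 3424 CPM, against 509, 473 and 456 CPM in acinar-like cells. Gstm1 was the one that fell (-1.38, SE 0.21, edgeR adjusted p = 1.7e-09). The whole list stood at 6731, 6790 and 7513 CPM in the members and at 7076, 7972 and 7205 CPM in the Msln and Ly6a high cells. Gsto1 stood at 3115, 3847 and 3156 CPM in the latter. Against those cells 5 of the 12 tested genes were called higher and 3 lower, and 0 of these 8 stayed called without each tumour.

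Growth genes were lower in the members than in acinar-like cells. Of 30 ribosome biogenesis genes that MYC is known to drive, all were tested, 26 were lower and 0 higher, with a median of -0.77. Only 3 of the 26 stayed called without each tumour, and DESeq2 called 15 lower. Srm, the spermidine synthase gene, stood at 142, 179 and 92.6 CPM in the members, against 542, 631 and 407 CPM in acinar-like cells (-1.93, SE 0.17, edgeR adjusted p = 2.85e-28). Nucleolin (Ncl) stood at 2285, 2392 and 1037 CPM in the members and at 4515, 5717 and 2759 CPM in acinar-like cells. Ncl was thus lower in the members' sum of each tumour, and the members of tumour 3 had the lowest level. Myc itself had 46 UMIs in the members and was not called (-0.79, SE 0.34, edgeR adjusted p = 0.0512). Of 20 tested S phase genes outside the rule 17 were lower, of 30 G2 and M phase genes 17 were lower, and none was higher. Without each tumour 3 and 4 of these stayed called. Both populations were gated as non-cycling on 10 other cell cycle genes, which stood at 635, 630.3 and 416 CPM in the members, against 1277, 2089 and 1264 CPM in acinar-like cells. The rule limits those genes in both.

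Acinar genes outside the rule were low in the members. All 18 tested of 25 were lower, with a median of -5.70, and 14 stayed called without each tumour. The opposed limits on the 7 enzyme genes partly set this direction. Cckar, the cholecystokinin receptor of acinar cells, had 0 UMIs in the members against 147 in acinar-like cells, at least 52.3-fold lower with 3 counts over all members as the floor. Erp27, a chaperone of the acinar secretory pathway, had 0 against 213 UMIs, at least 75.7-fold lower. Ptf1a, the acinar transcription factor, had 1 UMI in the members against 81 in acinar-like cells. Reg1, a secreted acinar stress protein, was an exception in level. It stood at 3646, 4369 and 8412 CPM in the members, above free RNA at 3350, 3149 and 3494 CPM, and at 15256, 13049 and 20819 CPM in acinar-like cells. The elastase gene Cela2a, by contrast, stood at 5.37, 7.16 and 14.4 CPM in the members, below free RNA at 97.1, 65.0 and 205 CPM.

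**Figure D2:**
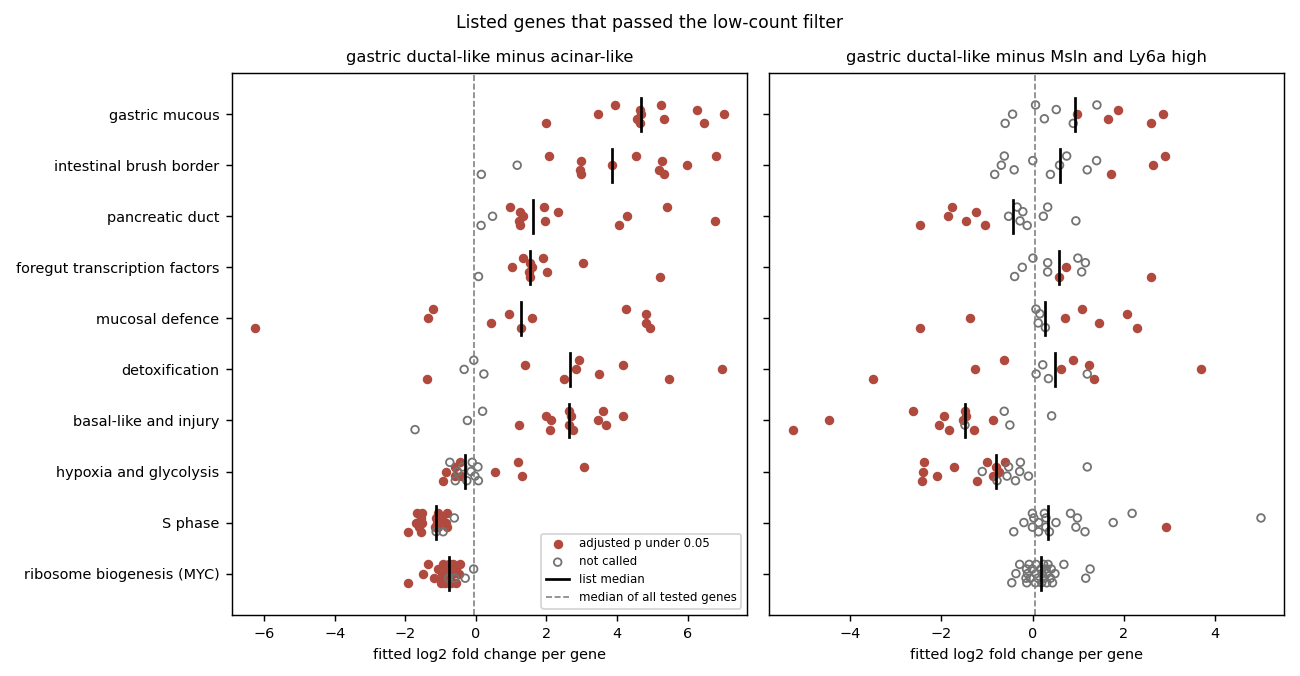
Fitted log2 fold change of each listed gene that passed the low-count filter, in gastric ductal-like minus acinar-like cells (left) and minus Msln and Ly6a high cells (right). Filled points have an edgeR adjusted p under 0.05, black bars are list medians and dashed lines the median of all tested genes; on the left the gastric mucous median is 4.67 and on the right 0.93, and values of genes at 0 UMIs in one population depend on the fit's prior count.

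Beyond the lists, the genes with the largest increase over acinar-like cells, by a rule of called genes at 50 CPM or more, included secretory and metabolic genes. Sftpd, a collectin that binds microbes at mucosal surfaces, had 193 UMIs in the members against 1 in acinar-like cells. Clca1, a secreted protein of mucus-producing cells, had 277 against 3. Rbp2, the retinol carrier of absorptive gut cells, had 116 against 1, and the sulfotransferase Sult1d1 had 140 against 1. Bace2 (64 UMIs) and Gldc (67 UMIs) were at 0 in acinar-like cells, which gives at least 20.0-fold and 20.9-fold higher levels in the members. All 6 were higher in the members than in acinar-like cells in each of the 3 tumours. Clca1 was, however, called lower in the members than in Msln and Ly6a high cells.

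The 3 gastrokines are stomach proteins made by surface mucous cells, and their genes lie next to each other in the mouse genome. Gkn1 (chr6:87345650-87350942, minus strand), Gkn2 (chr6:87373357-87379497, plus strand) and Gkn3 (chr6:87383256-87388935, minus strand) are protein-coding genes in mm10 coordinates of the GENCODE annotation. Their promoters, from 250 bases before to 50 bases after the annotated start, are shown because the 3 neighbouring genes were all detected in the members and nearly missing from acinar-like cells. They are RefSeq sequences of build GRCm38.p6, written 5′ to 3′ on the gene's strand, from chr6:87350866-87351165, chr6:87373115-87373414 and chr6:87388886-87389185.

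Gkn1: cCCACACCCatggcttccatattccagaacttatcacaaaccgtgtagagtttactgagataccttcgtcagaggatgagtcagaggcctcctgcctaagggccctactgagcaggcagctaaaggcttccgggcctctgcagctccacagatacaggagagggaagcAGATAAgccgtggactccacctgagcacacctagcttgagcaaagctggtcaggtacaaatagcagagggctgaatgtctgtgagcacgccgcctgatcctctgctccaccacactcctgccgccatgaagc

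Gkn2: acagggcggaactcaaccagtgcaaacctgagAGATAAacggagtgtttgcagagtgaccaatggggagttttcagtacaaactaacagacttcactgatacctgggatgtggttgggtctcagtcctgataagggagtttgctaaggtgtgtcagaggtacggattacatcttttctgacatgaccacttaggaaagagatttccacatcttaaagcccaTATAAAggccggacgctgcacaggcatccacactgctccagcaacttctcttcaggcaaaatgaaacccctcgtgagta

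Gkn3: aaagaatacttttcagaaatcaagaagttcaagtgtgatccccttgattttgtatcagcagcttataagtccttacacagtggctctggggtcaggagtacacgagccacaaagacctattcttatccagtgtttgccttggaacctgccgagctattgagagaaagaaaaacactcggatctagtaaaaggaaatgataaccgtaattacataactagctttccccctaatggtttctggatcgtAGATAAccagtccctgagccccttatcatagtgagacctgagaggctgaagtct

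Capitals mark matches on either strand to 7 short motifs that were searched. These were AGATAA for Gata factors, TGTTTAC for Foxa, ATCAATA for Onecut, AGGAAGT for Elf3 and Ehf, CAAAGTC for Hnf4, GGGNGTGG for Klf factors and TATAAA for the TATA box. AGATAA was in all 3 promoters, starting 82, 218 and 4 bases before the start of Gkn1, Gkn2 and Gkn3, and it is in 11.2% of 32851 mouse promoters of this length. TATAAA lay 29 bases before the start of Gkn2 (13.6% of promoters), and the Klf motif, as CCACACCC, lay at the far end of the Gkn1 window (17.6%). The other motifs had no match in these windows, which says only that those letters are not there. Promoters of Lgals4, Lypd8, Phgr1, Agr2 and Muc13 were searched too. AGATAA was found, on the other strand, in 1 of the 2 listed promoters of Lypd8, and CAAAGTC, also on the other strand, in 1 of the 2 of Muc13. Those of Lgals4, Phgr1 and Agr2 held none of the motifs. Gata4, the one Gata gene of the lists above 20 CPM, had 42 UMIs in the members. The lists hold Gata4 and Gata5 only, so nothing is said of other Gata genes.

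Gastrokine RNA was concentrated in a small part of the members. Gkn1 stood at 77.8, 57.3 and 189 CPM, Gkn2 at 142, 71.6 and 154 CPM, and Gkn3 at 123, 236 and 177 CPM in the members of tumours 1, 2 and 3. Acinar-like cells had 2 UMIs of Gkn1, 1 of Gkn2 and 5 of Gkn3 in all. At least 1 gastrokine UMI was found in 73 of 408, 25 of 99 and 59 of 243 members (17.9%, 25.3% and 24.3%), against 4 of 221, 0 of 20 and 4 of 366 acinar-like cells. Cells of both populations had similar depth, with medians of 1617.5, 1254 and 1758 UMIs in the members and 1695, 1213 and 2018.5 in acinar-like cells. Among the Msln and Ly6a high cells, 5 of 85, 1 of 12 and 5 of 80 had at least 1 gastrokine UMI. Of that population 2, 0 and 1 cells had 2 or more of the genes. A pair or all 3 of the genes were found in 34, 4 and 18 members and in 0 acinar-like cells, and all 3 in 10, 1 and 11 members. Those 34 cells of tumour 1 (8.33% of its members) held 199 of 256 gastrokine UMIs (77.7%), and the 18 cells of tumour 3 (7.41%) held 180 of 253 (71.1%). In tumour 2 the 4 cells held 14 of 51 (27.5%), so the concentration was seen in 2 of the 3 tumours. In thinned cells the variance of Gkn2 was 3.51, 1.52 and 3.27 times its mean, where counting alone gives a value near 1, against 0.97, 0.98 and 0.85 for Anxa10.

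Levels of the trefoil factors were set beside the number of gastrokines found in a cell. This split was chosen after the data were seen, and Tff1 and Tff2 are genes of the rule, so the values are a description from which nothing is concluded. Tff1 stood at 6049, 7649 and 10523 CPM in members of tumour 1 with 0, 1 and 2 or 3 gastrokines, at 5943, 7691 and 16040 CPM in tumour 2 and at 5828, 9128 and 13660 CPM in tumour 3. Tff2 stood at 3552, 4981 and 6566 CPM in tumour 1, 2551, 3934 and 4258 CPM in tumour 2, and 4965, 8172 and 9147 CPM in tumour 3. Krt19 had no such order, with 3988, 3539 and 4046 CPM in tumour 1. The median UMI count of the cells was 1607, 1537 and 1736 in tumour 1, but it rose with the number of gastrokines in tumour 2 (1236, 1337 and 1434.5) and tumour 3 (1671.5, 1940 and 2211), and its part in the order was not tested.

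**Figure D3:**
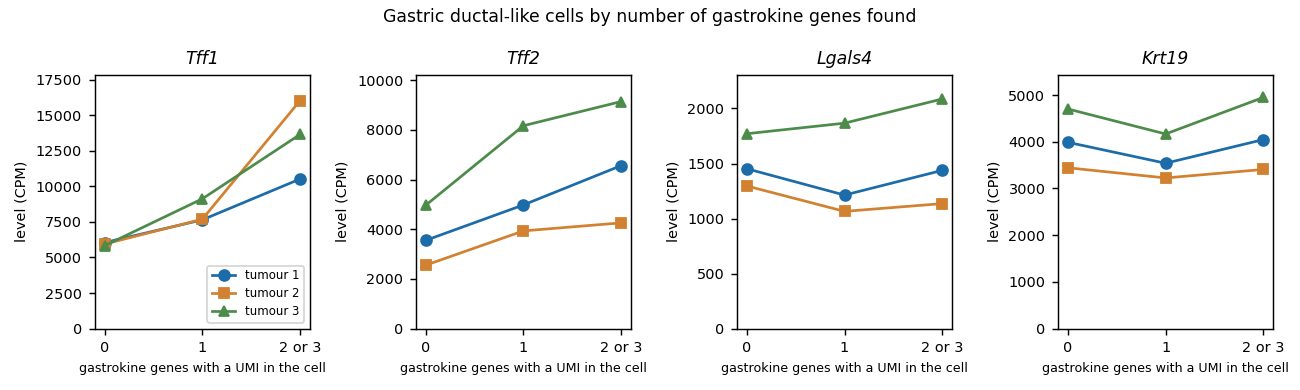
Levels of Tff1, Tff2, Lgals4 and Krt19 in gastric ductal-like cells with a UMI of 0, 1, or 2 or 3 gastrokine genes, in CPM of the summed cells, with 1 line per tumour. Tff1 and Tff2, genes of the rule, are highest in the cells with 2 or 3 gastrokines in all 3 tumours; that group holds 34, 4 and 18 cells.

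Against the Msln and Ly6a high cells fewer genes were called, in a comparison with fewer sums. The members held more gastrokine and mucosal defence RNA, and less RNA of an injury-like list and of a hypoxia list. The opposed gating on marker genes of the Msln and Ly6a high state means that the injury-like direction is not an independent result. Sums of this population could be made for tumours 1 and 3 (147678 and 175857 UMIs). Of 4500 genes 118 (2.62%) were higher in the members and 187 (4.16%) lower by edgeR. Without tumour 1 the counts were 12 and 29, without tumour 3 they were 12 and 53, and DESeq2 called 15 and 83. DESeq2 thus put 15.3% of its calls on the higher side, against 38.7% with edgeR. Without the block the counts were 41 and 111.

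The gastric genes divided. Of 12 tested 5 were higher and 0 lower, with a median log2 fold change of 0.93 beside 0.06 over all genes, and 0 of the 5 stayed called without each tumour. The 3 gastrokines led: Gkn1 stood at 77.8 and 189 CPM in the members of tumours 1 and 3, against 27.1 and 11.4 CPM in the Msln and Ly6a high cells (2.86, SE 0.48, edgeR adjusted p = 2.97e-07). Gkn3 (2.60, SE 0.43), Gkn2 (1.87, SE 0.38), Agr2 (1.64, SE 0.36) and Sult1c2 (0.97, SE 0.23) were the others. Ctse (0.06, SE 0.19, edgeR adjusted p = 0.925), Anxa10 (-0.44, SE 0.19) and Muc1 (0.26, SE 0.20) were not called, and Ctse stood at 351 and 609 CPM in the members beside 413 and 500 CPM in the other cells. The gastrokines lost the call without tumour 3, and Agr2 and Sult1c2 without tumour 1 or 3. In tumour 2, outside the fit, Gkn3 was nearly level, at 236 CPM in the members and 223 CPM, from 4 UMIs, in the other cells. Gkn1 stood there at 57.3 and 0 CPM.

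Of 13 tested intestinal genes 3 were higher. Lypd8 stood at 435 and 953 CPM in the members, against 108 and 313 CPM in the Msln and Ly6a high cells (1.72, SE 0.22, edgeR adjusted p = 1.24e-12), and stayed called without each tumour. Lgals2, a galectin of the gut, and Muc13 were higher by 2.90 (SE 0.44) and 2.64 (SE 0.51) on the log2 scale and lost the call without tumour 3. Phgr1 was not called (0.39, SE 0.19), at 585 and 842 CPM in the members and 548 and 535 CPM in the other cells. In tumour 2, outside the fit, Muc13 had the opposite order, at 107 CPM in the members and 167 CPM, from 3 UMIs, in the other cells. Lgals2 stood there at 229 and 0 CPM. The 2 marker genes thus parted: Lypd8 was called against this neighbouring state and Phgr1 was not. The populations were not matched for the gastric genes, with medians of 0.265% and 0.140% in the Msln and Ly6a high cells of tumours 1 and 3. Cells above the gastric threshold were also pooled over tumours beside the 0.35% limit. The 33 cells at 0.25% to 0.35% had Lypd8, intestinal and gastric mucous genes at 583, 2775 and 2176 CPM. The 23 cells at 0.35% to 0.45% had 450, 2818 and 3031 CPM.

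Mucosal defence genes were higher in 5 of 11 and lower in 2. Dmbt1 stood at 2258 and 4340 CPM in the members, against 623 and 1097 CPM in the Msln and Ly6a high cells (2.07, SE 0.23, edgeR adjusted p = 4.15e-17). Reg3b stood at 1418 and 2576 CPM in the members and at 244 and 569 CPM in the other cells (2.29, SE 0.25, edgeR adjusted p = 7.49e-18). Reg3g, Pigr and Ltf were the other 3. Of these 5, Dmbt1 and Reg3b stayed called without each tumour. The protease inhibitor genes Slpi and Wfdc2 fell, by 2.47 and 1.37 on the log2 scale. Reg3b and Dmbt1 were thus higher in the members than in this population, whereas Reg3b was lower than in acinar-like cells.

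Genes of a basal-like and injury list fell: 11 of 15 tested were lower and 0 higher, with a median of -1.49, and 4 stayed called without each tumour. The populations were gated in opposite directions on the genes that mark the Msln and Ly6a high state. The direction of genes that vary with those markers, in this list or outside it, is therefore not an independent result. Against acinar-like cells 12 of the 15 were instead higher and 0 lower, with a median of 2.63, and 9 stayed called. The whole list stood at 13656 and 15908 CPM in the members of tumours 1 and 3. It stood at 28190 and 28728 CPM in the Msln and Ly6a high cells and at 1730 and 2521 CPM in acinar-like cells. Much of this total is 1 gene, S100a6, at 9383 and 9661 CPM in the members and 16123 and 14842 CPM in the Msln and Ly6a high cells. S100a6 was not called between these 2 populations. Anxa1, an annexin induced in injured epithelium, stood at 463 and 366 CPM in the members, against 1862 and 1530 CPM in the Msln and Ly6a high cells (-2.04, SE 0.18, edgeR adjusted p = 9.73e-27). Sprr1a, a cornified envelope protein, stood at 77.8 and 88.5 CPM in the members and at 1036 and 1092 CPM in the other cells (-3.69, SE 0.19, edgeR adjusted p = 3.55e-76). The EGF receptor ligand Areg (-1.95, SE 0.21) and Ly6c1 (-4.46, SE 0.38) also fell. Duct genes fell in 6 of 14, namely Cldn4, Krt7, Mmp7, Clu, Krt18 and Spp1, while Krt19 (-0.34, SE 0.21) and Krt8 (-0.53, SE 0.21) were not called. Of 20 hypoxia and glycolysis genes 11 were lower and 0 higher, with a median of -0.80, and 1 stayed called without each tumour. Ndrg1, a stress gene induced by low oxygen, stood at 71.1 and 28.8 CPM in the members, against 271 and 296 CPM in the other cells (-2.41, SE 0.27, edgeR adjusted p = 5.71e-17). Of 30 ribosome biogenesis genes 0 were called by edgeR in either direction, with 1 at an unadjusted p under 0.05, 0 by DESeq2 and a median of 0.19.

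Against the cycling cells of the same gate few differences could be tested, because tumour 1 alone gave a cycling sum, of 29 cells and 55120 UMIs, which is assumed to vary as the other sums do. Of 4500 genes 1 was higher (0.0222%) and 6 were lower (0.133%) by edgeR, and DESeq2 called 0 higher with 147 genes at an unadjusted p under 0.05. The 2 populations were divided by a threshold on 10 other cell cycle genes, so nothing is read from their lower cell cycle genes. The 6 were the mitotic genes Ccnb1, Kif23 and Cenpa, the chromatin protein gene Hmgb2, the tubulin gene Tuba1c, and Arl6ip1. Hmgb2 stood at 506 CPM in the members of tumour 1, against 1524 CPM in its cycling cells. Ctsd, a lysosomal protease, was at 0 UMIs in the 29 cycling cells and at 212 CPM in the members, which makes it at least 3.89-fold higher in that tumour. In tumour 3, whose 8 cycling cells were too few for the fit, it stood at 267 CPM in the members and, from 6 UMIs, at 345 CPM in cycling cells, the opposite order. No gastric, intestinal, duct or defence gene was called by edgeR in this fit, with a median of 0.07 over the 12 gastric genes beside 0.13 over all genes. With every sum of 1 or more cells, an alternative chosen after seeing the data, 3 defence and 2 duct genes were called higher, and with gating on 50% of the UMIs 1 intestinal gene was. In simulated data this comparison recovered 24% of genes changed by 2 on the log2 scale, so it could miss most changes of that size.

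Within the members, genes of mucosal defence varied together. Rank correlations over cells thinned to 1000 UMIs are given as descriptions, since all cells of a tumour share a library. Dmbt1 and Pigr together rose with the Reg genes Reg1, Reg3b and Reg3g (Spearman's rho 0.57, 0.45 and 0.54 over 408, 99 and 243 cells). The Reg genes also went with Lcn2 and Ltf (0.39, 0.42 and 0.58) and against S100a6, a calcium-binding protein (-0.37, -0.45 and -0.43). Tff1 is a gene of the rule, whose threshold shapes its correlations among members. It had values of -0.27, -0.10 and -0.37 with Dmbt1 and Pigr, of -0.36, -0.27 and -0.55 with Lcn2 and Ltf, and of -0.33, -0.29 and -0.46 with the Reg genes. Its values were 0.40, 0.51 and 0.49 with S100a6, 0.32, 0.34 and 0.37 with Lypd8 and Phgr1, and -0.14, -0.17 and 0.13 with Tff2.

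Each tumour's members were then split into low, middle and high groups of equal size by the summed share of Dmbt1, Pigr, Lcn2 and Ltf, a split chosen after the data were seen. Reg1 stood at 8274 CPM in the high and 874 CPM in the low group of tumour 1, at 8551 and 1553 CPM in tumour 2, and at 15351 and 2479 CPM in tumour 3. Tff1 stood at 8070, 7466 and 4108 CPM in the low, middle and high groups of tumour 1, at 6517, 8662 and 5476 CPM in tumour 2, and at 11021, 7363 and 3169 CPM in tumour 3. It was thus highest in the middle group of tumour 2, with no steady order there. Tff2 stood at 5783 CPM in the high and 2597 CPM in the low group of tumour 1 and at 4128 and 1662 CPM in tumour 2, with 5944 and 5779 CPM in tumour 3. S100a6 was lower in the high group of each tumour, at 6933 CPM against 11239 CPM in tumour 1. The ribosome biogenesis genes were lower there too, at 10986 CPM against 14416 CPM in tumour 1 and 7558 CPM against 9915 CPM in tumour 3. Other quantities moved with the split. Mitochondrial UMIs were a median of 4.86% in the high and 3.07% in the low group of tumour 1, and 5.62% and 2.92% in tumour 3. The enzyme genes stood at 271 CPM in the high and 210 CPM in the low group of tumour 1, at 232 and 547 CPM in tumour 2, and at 683 and 443 CPM in tumour 3. Their part in these differences was not tested.

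**Figure D4:**
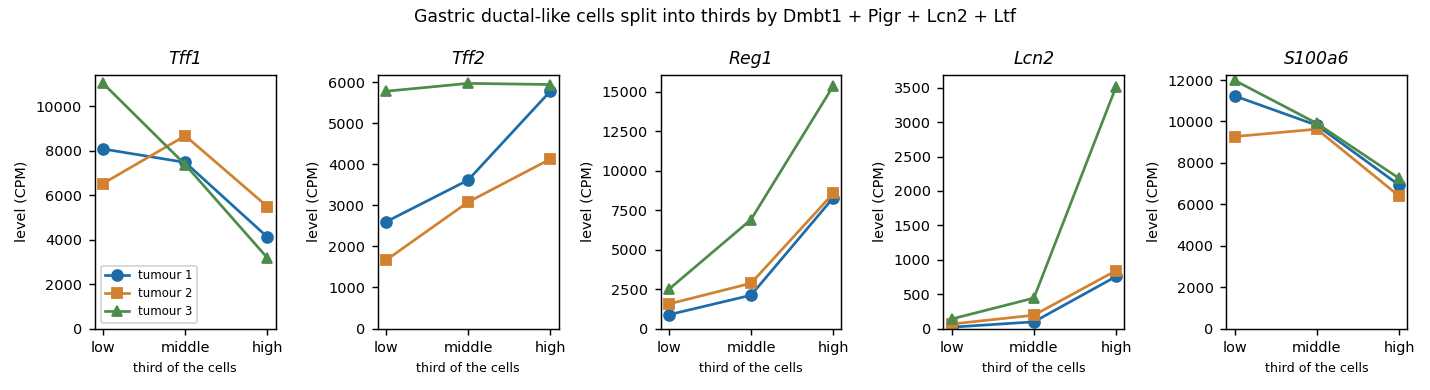
Levels of Tff1, Tff2, Reg1, Lcn2 and S100a6 in the low, middle and high group of the gastric ductal-like cells of each tumour, split by the summed share of Dmbt1, Pigr, Lcn2 and Ltf, in CPM of the summed cells, with 1 line per tumour. Reg1 is highest in the high group of all 3 tumours; Lcn2 is part of the split, and Tff1 and Tff2 are genes of the rule.

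Between tumours the members differed most in a few genes, several of them secreted, which is given as a description of 3 tumours. Lcn2 stood at 280, 372 and 1418 CPM in tumours 1, 2 and 3, so tumour 3 was far above the others. Wfdc18, a secreted protease inhibitor gene, stood at 96.6, 115 and 630 CPM, and Cxcl5, a neutrophil-attracting chemokine, at 89.9, 158 and 516 CPM. The same tumour had the highest Ltf, at 111, 186 and 512 CPM, and Clu, at 879, 1074 and 2619 CPM. Free RNA held 127, 144 and 195 CPM of Lcn2, so its spread between tumours was smaller there. The largest ratio was that of Gm8797, at 9.39, 158 and 6.17 CPM, where tumour 3 had 3 UMIs. Krt8 by contrast stood at 3247, 3151 and 3208 CPM.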

How the data were processed

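The deposited tables hold raw UMI counts per gene and barcode, made by the authors with Cell Ranger 3.0.2 per the file headers; the submitters' processing notes name the mm10 build. Version 1 and Version 3 kits both appear in the labels, so the chemistry is not settled. Barcodes with 1000 to 5000 UMIs, 500 or more genes, at most 20% mitochondrial UMIs, under 10% ribosomal RNA locus genes and 60% or more of their UMIs in 1 library were kept. Scrublet marked 0, 9 and 0 members as doublets, which were kept.

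Counts were summed per tumour and population where 20 or more cells were present. The 9 sums were fitted with edgeR 4.0.16 (filterByExpr, TMM, quasi-likelihood test, tumour as block, Benjamini-Hochberg adjustment over 4533 genes). The fit had 3 residual degrees of freedom. Each SE is the size of the log2 fold change divided by the square root of the test's F value. It is not a spread measured over the tumours. The populations compared within a tumour share its animal, which is the source of the pairing. Their deviations from the population means correlated with those of the members by 0.0315, 0.0369 and 0.252 for acinar-like cells of tumours 1, 2 and 3, and by 0.238 for Msln and Ly6a high cells. The fit was tested on simulated data. In the acinar-like, cycling and Msln and Ly6a high comparisons it recovered 62%, 5% and 35% of genes changed by 1 on the log2 scale, and 90%, 24% and 76% of those changed by 2.

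Intervals and floors (3 counts) cover counting error only. The cells are 1 library per tumour, and nothing in the labels says whether the tumours share a donor. Named genes were all members of the lists, the 10 largest called changes per direction and comparison at 50 CPM or more, the 10 largest ratios between tumours at 100 CPM or more, and the 20 most abundant genes. Of the genes this rule names, 1 is left out of the text and not reported here. The members and lists were chosen with earlier results of these data known. Python 3.11.15, scanpy 1.11.5, R 4.3.3 and DESeq2 1.42.0 were also used.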

Additional observations from a re-analysis of the deposited data

How the results depend on the processing

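With each tumour left out in turn, the counts moved as follows. Against acinar-like cells the genes higher ranged over 401 to 1190 and the genes lower over 243 to 1106. Against Msln and Ly6a high cells the ranges were 12 to 126 and 29 to 215, and against cycling cells 1 to 2 and 2 to 6. Leaving out tumour 1 gave no cycling value, since that tumour holds the one cycling sum. DESeq2 called 309 genes lower against acinar-like cells, 0 higher against cycling cells, and 15 higher and 83 lower against Msln and Ly6a high cells. Without the replicate block 555 genes were lower against acinar-like cells, and 41 were higher and 111 lower against Msln and Ly6a high cells. Gating on 50% of the UMIs and testing on the rest gave 572 lower against acinar-like cells, 3 higher and 2 lower against cycling cells, and 66 higher and 110 lower against Msln and Ly6a high cells. Without the filter on low counts 2 were lower against cycling cells and 76 higher against Msln and Ly6a high cells. Without the home-library filter 2 were lower against cycling cells. A gastric threshold of 0.6% gave 2 higher against cycling cells, and removing the top 5% of doublet scores gave 3. Using every sum of 1 or more cells, chosen after seeing the data, gave 625 lower against acinar-like cells and 21 higher and 11 lower against cycling cells.

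The share of members moved to 32.1%, 37.1% and 19.6% in tumours 1, 2 and 3 at a gastric threshold of 0.6%, to 33.6% in tumour 2 without the home-library filter, and to 38.7% in tumour 1 at a cycling threshold of 0.2%. With ribosomal RNA locus barcodes in the denominator, chosen after seeing the data, it was 29.8%, 40.9% and 9.38%. The mean share ranged over 33.5% to 46.8% without each tumour. A home-library requirement of 90% left 1, 0 and 2 cells, so it gave no share and no fit. Clca1, called lower in the members than in Msln and Ly6a high cells, changed sign without tumour 3. It was then 0.54 on the log2 scale, against -1.13 without tumour 1. Of the values of named genes under the alternatives, 2233 kept direction and call against acinar-like cells and 385 lost the call. Against Msln and Ly6a high cells these were 731 and 243, and against cycling cells 42 and 28. The cause of these changes was not tested, apart from the fewer sums or cells that an alternative leaves. Depth limits genes with few UMIs: a count of 0 over the members allows 2.19 CPM.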
